A study of Mus musculus with 6 samples.

Results

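The endoplasmic reticulum (ER) chaperone and unfolded protein response genes were taken as a list of 31 genes, found by gene symbol among the 53342 genes of the deposited table, and all 31 were present and expressed highly enough to be tested. They comprise 9 ER Hsp70 and Hsp90 chaperones and co-chaperones, 5 lectin chaperones and disulfide isomerases, 9 stress sensors and transcription factors, 3 translocon subunits, 4 genes of ER-associated degradation and 1 gene of ER exit. The list was set by function and not by a limit on measured values, but earlier results of these data were known when it was chosen. The question was how the transcripts of this pathway differed between dental pulp with and without matrix metalloproteinase 13 (MMP13), a collagenase of the extracellular matrix.

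RNA sequencing was carried out on 3 dental pulp samples of WT mice (replicates 2, 4 and 5) and 3 of Mmp13-/- mice (MMP13KO, replicates 1, 2 and 6), all male, on the C57BL/6 strain and 3 months of age. The mutants carried a germline deletion present in every cell of the animal and not only in the pulp, and no other allele or treatment was given for either genotype. The sample labels state that the pulp was taken from molars, whereas the methods of the study state incisors, so the tooth cannot be settled here. The samples were described as biological replicates, and the text does not say whether each came from 1 animal or from a pool.

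Secretory and membrane proteins enter the ER through the Sec61 translocon and are folded there by the Hsp70 chaperone BiP (*Hspa5*), the Hsp90 chaperone GRP94 (*Hsp90b1*), the lectins calnexin and calreticulin, and disulfide isomerases. Chains that fail to fold are returned to the cytosol through the HRD1 complex for degradation, and an excess of unfolded protein is sensed by IRE1α (*Ern1*), PERK (*Eif2ak3*) and ATF6, which raise chaperone transcription through XBP1, ATF4 and cleaved ATF6. Odontoblasts and pulp fibroblasts secrete large amounts of type I collagen, and the ATF6-related factor OASIS (*Creb3l1*) is known for its role in collagen secretion by bone-forming cells.

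ATF6 and XBP1 act through the ER stress response element (ERSE), with the letters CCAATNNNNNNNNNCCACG. RefSeq start-site windows of 300 bases (250 before to 50 after the start, GRCm38.p6) were held for 26 of the 31 genes, and windows for *Atf6*, *Creb3l1*, *Hyou1*, *Manf* and *Sec61a1* were not used here. Only exact matches to its fixed letters were counted, so variants of the element were not. Such a match was found on either strand in 8 of these 26 genes (30.8%), against 37 of all 27025 genes with a window (0.137%). The members were chosen from the response that the element names, so this excess is a description and not a test. The windows of *Pdia3*, *Pdia4*, *Dnajb9*, *Dnajb11* and *Sdf2l1*, which also act in folding, held no exact match. The sites are shown because they are the matches to the element that names this response, with the conserved ends in capitals and the 9-base spacer in lower case.
Calr, chr8:84847075-84847093, plus strand: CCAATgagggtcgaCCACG
Canx, chr11:50325800-50325818, minus strand: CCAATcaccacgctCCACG
Creld2, chr15:88819520-88819538, minus strand: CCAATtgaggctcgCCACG
Dnajc3, chr14:118937827-118937845, plus strand: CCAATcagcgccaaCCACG
Hsp90b1 site 1, chr10:86705638-86705656, minus strand: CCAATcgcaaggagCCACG
Hsp90b1 site 2, chr10:86705533-86705551, plus strand: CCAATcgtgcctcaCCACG
Hspa5, chr2:34772025-34772043, plus strand: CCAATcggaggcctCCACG
Pdia6, chr12:17266491-17266509, plus strand: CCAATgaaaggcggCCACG
Syvn1, chr19:6046532-6046550, plus strand: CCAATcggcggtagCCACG
The single exact match of *Hspa5* ended 46 bases before the start of transcription. *Hsp90b1* held 1 exact match on each strand, 193 and 88 bases before its start. The 250 bases before the start are given for these 2 genes, with the ends of each ERSE in capitals, since both genes passed the test under every alternative processing. GENCODE M21 places the 5′ end of both genes further upstream than the RefSeq start used here.
Hsp90b1, chr10:86705445-86705694, minus strand: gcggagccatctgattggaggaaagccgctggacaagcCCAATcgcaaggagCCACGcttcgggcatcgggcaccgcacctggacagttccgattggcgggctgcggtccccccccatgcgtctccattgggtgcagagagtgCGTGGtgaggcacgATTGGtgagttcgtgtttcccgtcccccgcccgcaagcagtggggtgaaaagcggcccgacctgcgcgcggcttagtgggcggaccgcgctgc
Hspa5, chr2:34771840-34772089, plus strand: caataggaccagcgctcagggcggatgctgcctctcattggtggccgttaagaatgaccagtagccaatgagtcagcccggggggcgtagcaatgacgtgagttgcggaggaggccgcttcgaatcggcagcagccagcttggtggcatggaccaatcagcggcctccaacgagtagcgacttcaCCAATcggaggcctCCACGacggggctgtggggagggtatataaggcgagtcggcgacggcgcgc
Of the 6 members that were higher in Mmp13-/- pulp, 5 held an ERSE (all but *Sec61b*), of which *Canx* and *Dnajc3* had fold changes below 0 on the log2 scale after GC correction. Of the 8 members with a window that were lower, only *Syvn1* held one, and of the 12 that did not pass, *Calr* and *Creld2* did. The element was therefore present in members of all 3 kinds. Other pathway motifs were rarer. ERSE-II (the letters ATTGG, any base, then CCACG) was found in *Dnajb11* and *Herpud1*, against 0.0444% of all genes. The amino acid response element (TGATGCAA), a site of ATF4, was found only in *Herpud1* of the 26, against 1.03% of all genes, and the XBP1 element TGACGTGG in none, against 0.714%. The letters CCACG alone, which are also the end of the ERSE, were found in 18 of 26 (69.2%) against 35.5%. Outside the list, 29 genes held an ERSE, of which 14 were tested. Of these 14, 3 were higher and 4 were lower in Mmp13-/- pulp, against 27.3% and 24.3% of all genes. After GC correction 1 was higher and 1 was lower.

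The libraries held 21561420 to 29980236 estimated counts in genes. *Mmp13* itself had 997, 1059 and 816 normalized counts (counts scaled to a common library size) in WT samples 2, 4 and 5, against 8.74, 29.7 and 63.2 in Mmp13-/- samples 1, 2 and 6, a log2 fold change of −4.96 (SE 0.46, adjusted p = 7.67e-05, edgeR's quasi-likelihood test). Mmp13-/- sample 6 stood apart, with 30.5% of its counts in the predicted gene *Gm10800*, which was also the top gene of Mmp13-/- sample 2 (6.88%). In Mmp13-/- sample 1 and the WT samples the top gene was *Ttn* (4.48% to 5.95%). The 1459 olfactory and vomeronasal receptor genes, which should be nearly silent in pulp, reached 1198 CPM (counts scaled to a fixed library total) in Mmp13-/- sample 6. They reached 308 and 357 CPM in the other Mmp13-/- samples, against 17.9 to 20.8 CPM in WT. Log2 fold changes also followed the GC content of the exons over 16983 protein-coding genes (Spearman's rho = −0.58, across genes, which are not independent replicates), so GC-rich genes tended to be lower in the Mmp13-/- libraries. Bulk pulp holds several cell types, and fewer cells of a type and less RNA per cell cannot be told apart in these libraries. The fold changes of members are given also after a correction for GC content, and the part of these library differences in the results was not tested beyond that correction and the other alternatives.

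Of the 31 members, 16 (51.6%) passed the test at any fold, against 51.6% of all 24534 genes tested. The list as a whole thus passed as often as the transcriptome. Within it 6 were higher (19.4%, against 27.3% of all genes) and 10 were lower in Mmp13-/- pulp (32.3%, against 24.3%). Among the 10792 abundant protein-coding genes (mean log2(CPM + 1) over 3), to which 29 of the members belong, 19.1% were higher and 44.0% lower. The median log2 fold change was −0.22 over the members, −0.33 over the abundant genes and 0.10 over all genes tested. Over 2-fold, 1 member was higher (*Hsp90b1*, against 20.4% of all genes) and 1 was lower (*Creb3l1*, against 9.68%), and 24.4% of the abundant genes passed in either direction. The 3 WT and 3 Mmp13-/- values did not overlap in 20 members (64.5%, against 60.9% of all genes), including *Calr*, *Pdia4*, *Atf4* and *Sec61a1*, which did not pass the test.

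**Figure D1:**
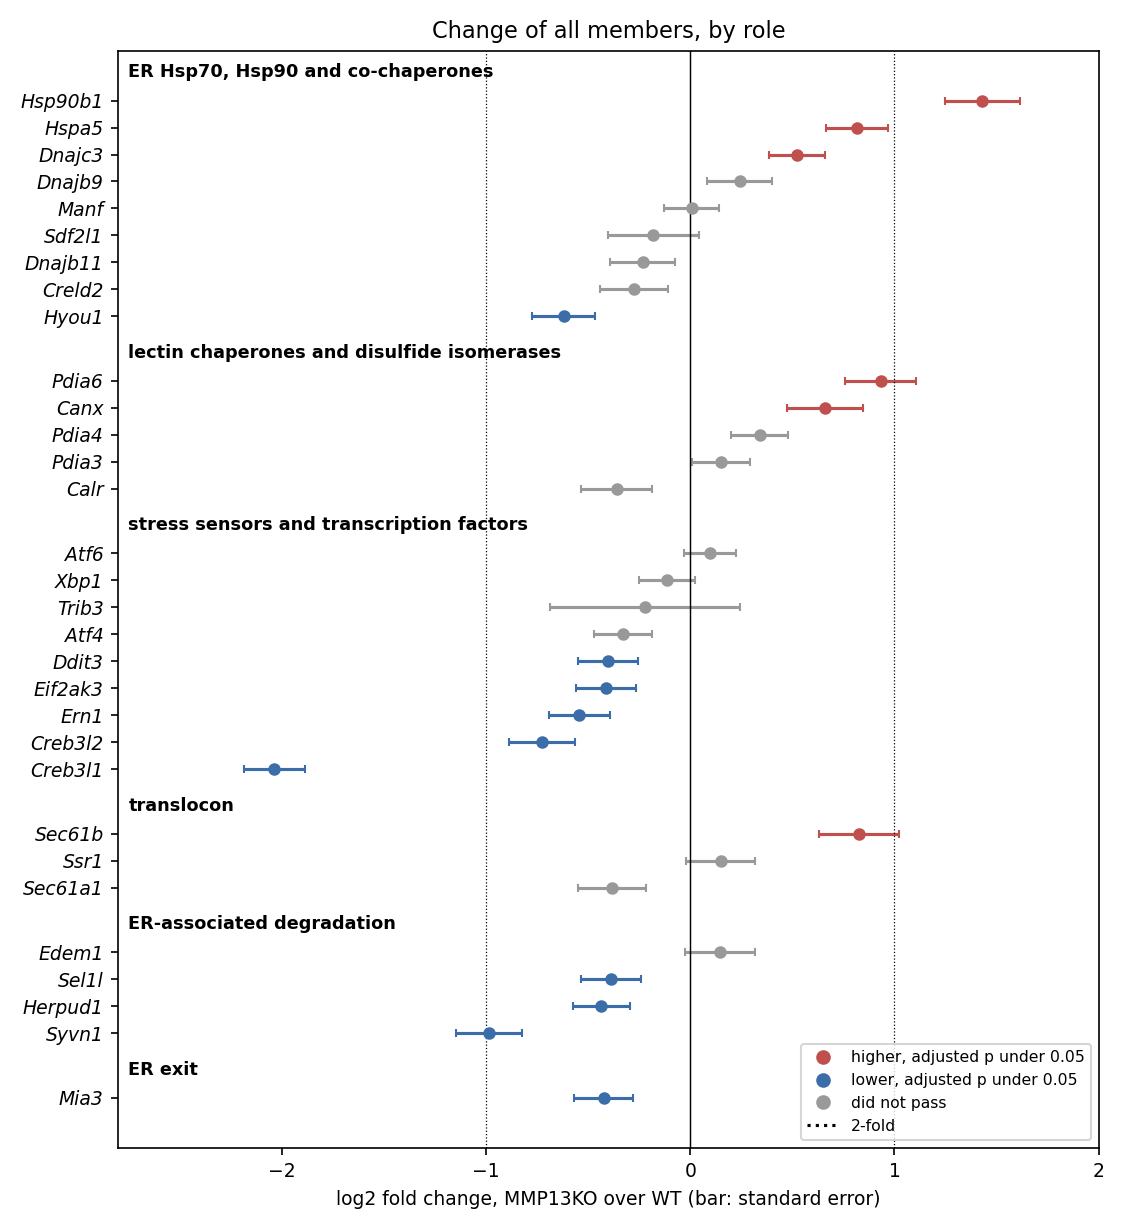
Log2 fold change of Mmp13-/- over WT for all 31 members, grouped by role, with bars for the standard error and dotted lines at 2-fold. Members that were higher lie among the chaperones, isomerases and the translocon, the 9 sensors and transcription factors hold none that was higher, and only *Hsp90b1* at 1.43 and *Creb3l1* at −2.04 lie beyond 2-fold. Over the abundant protein-coding genes, 19.1% were higher and 44.0% were lower.

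The division of the calls depended on the scaling of the libraries. With upper-quartile factors, which moved the median of all genes up by 0.21 on the log2 scale, 11 members were higher and 5 were lower, with a member median of 0.02. Those 5 were *Creb3l1*, *Creb3l2*, *Hyou1*, *Ern1* and *Syvn1*. With total counts, a shift of 0.11, 4 were higher and only *Creb3l1* and *Syvn1* were lower, so that 10 of the 16 calls were lost. The share of all genes that passed also fell, from 51.6% to 40.6% with total counts. With GC correction 4 were higher and 6 were lower, and 38.2% of all genes passed. *Hspa5*, *Hsp90b1*, *Pdia6* and *Sec61b* were higher, and *Creb3l1* lower, under all 15 alternatives, including each fit that left out 1 sample. No other member passed the test under every one of them. Leaving out WT sample 4 or WT sample 5 each reduced the lower members to 5, while 40.5% and 43.8% of all genes passed in these fits. Over 2-fold, *Pdia6* was added without WT sample 2 or Mmp13-/- sample 6, and *Syvn1* without WT sample 2, WT sample 5, Mmp13-/- sample 1 or Mmp13-/- sample 2.

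Among the Hsp70 and Hsp90 chaperones and their co-chaperones, 3 of 9 were higher (33.3%, against 19.1% of the abundant protein-coding genes). In the same group 1 was lower (11.1%, against 44.0%) and 5 did not pass. *Hspa5* (chr2:34771970-34777547, plus strand, GRCm38) encodes BiP, the central Hsp70 of the ER, which binds unfolded chains and holds the stress sensors inactive. It had 3300.0, 3143 and 3517 normalized counts in WT samples 2, 4 and 5, against 6419, 5567 and 5551 in Mmp13-/- samples 1, 2 and 6. Every Mmp13-/- sample lay above every WT sample, with means of 3319.8 ± 188 and 5846 ± 497 (SD, n = 3 each). The log2 fold change was 0.82 (SE 0.15, adjusted p = 0.00171, edgeR's quasi-likelihood test), or 0.53 after GC correction (adjusted p = 0.0181). *Hsp90b1* (chr10:86690209-86705509, minus strand, GRCm38) encodes GRP94, the ER Hsp90, whose clients include integrins and Toll-like receptors. It had 2267, 1682 and 2107 counts in WT, against 6042, 5785 and 4480.3 in Mmp13-/- samples, in the same order of samples. The lowest Mmp13-/- value, in sample 6, was still above the highest WT value. This was the member with the highest log2 fold change, 1.43 (SE 0.18, adjusted p = 0.000253, edgeR's quasi-likelihood test), but after GC correction it came to 0.66 (adjusted p = 0.00805), no longer over 2-fold. Its annotated exons share 10.3% of their bases with the antisense gene *1810014B01Rik*, and the counting strand was not given in the sources used here, so reads of the pair cannot be told apart over those bases.

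*Dnajc3* encodes P58IPK, a BiP co-chaperone that also inhibits PERK. It had 1769, 1453 and 1574 normalized counts in WT, against 2336, 2367 and 2191 in Mmp13-/- samples, without overlap. Its log2 fold change of 0.52 (SE 0.14, adjusted p = 0.0102, edgeR's quasi-likelihood test) became −0.21 after GC correction (adjusted p = 0.183), and its call was lost when WT sample 4 or 5 or Mmp13-/- sample 1 or 2 was left out (highest adjusted p = 0.108). *Hyou1* encodes GRP170, the exchange factor that reloads BiP with ATP, and it fell where BiP rose. Its values were 2423, 3103 and 2991 in WT, against 2038, 1797 and 1705 in Mmp13-/- samples, again without overlap, with a log2 fold change of −0.62 (SE 0.15, adjusted p = 0.00767, edgeR's quasi-likelihood test). It did not pass with total counts or after GC correction (−0.26, adjusted p = 0.163). The direct comparison of BiP with its exchange factor within a sample was not tested.

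The other 5 did not pass. The J-domain proteins *Dnajb11* (−0.23, SE 0.16) and *Dnajb9* (0.24, SE 0.16) deliver clients to BiP, and their ranges overlapped between genotypes. *Dnajb9* passed in opposite directions under 2 alternatives, with a log2 fold change of 0.44 with upper-quartile factors (adjusted p = 0.0226) and −0.66 after GC correction (adjusted p = 0.00518, edgeR's quasi-likelihood test). *Sdf2l1*, a partner of DNAJB11, had a log2 fold change of −0.18 (SE 0.22), and the disulfide isomerase *Creld2* −0.28 (SE 0.17). *Manf*, a secreted protein that stabilizes BiP and its clients, was the member with the smallest difference, at 619.5 ± 40.6 normalized counts in WT, against 623 ± 43.0 in Mmp13-/- samples (SD, n = 3 each), a log2 fold change of 0.01 (SE 0.13).

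**Figure D2:**
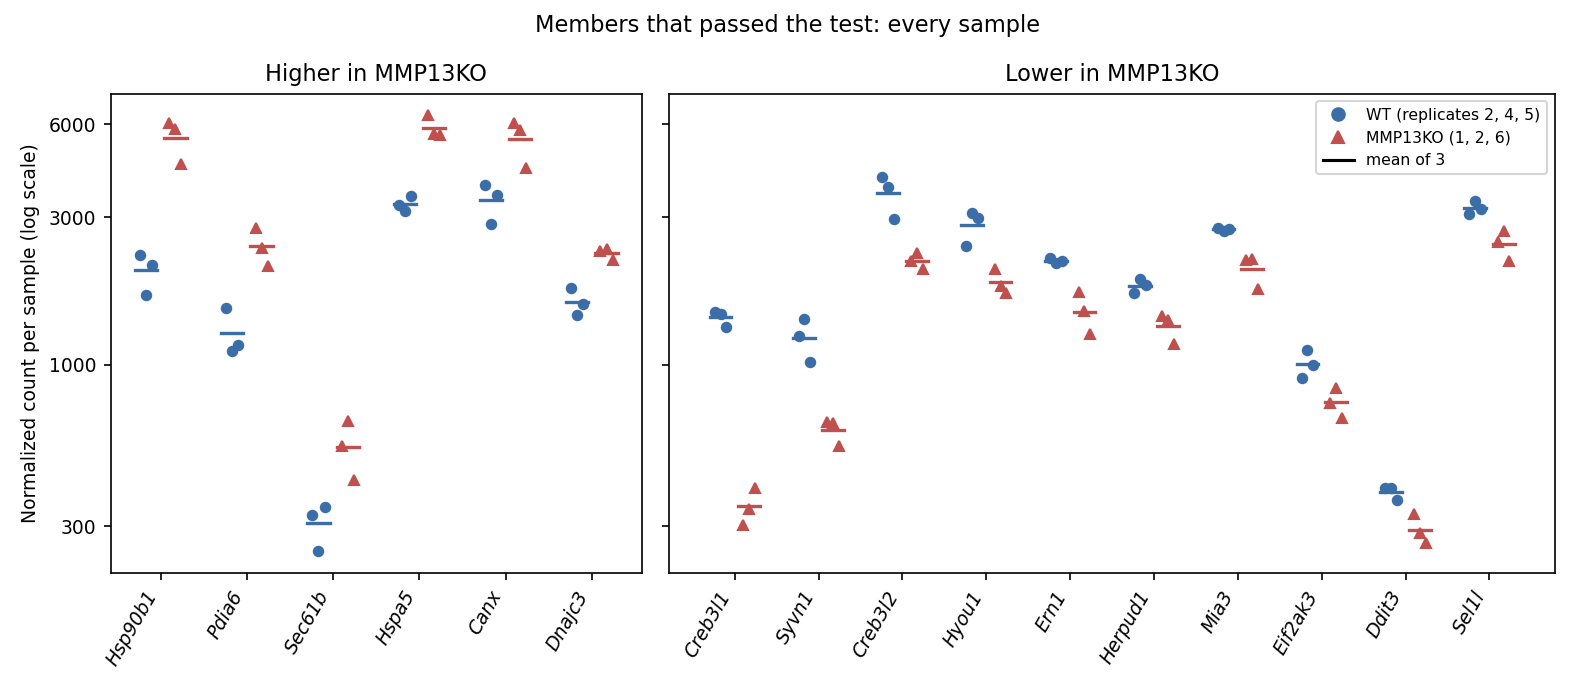
Normalized counts of the 16 members that passed the test at any fold, on a log axis, with a point for each of the 3 WT and 3 Mmp13-/- samples and a bar for the mean. The genotypes do not overlap in any of them, the widest gap is that of *Creb3l1*, and Mmp13-/- sample 6, drawn last in its group, is the lowest of its genotype in most.

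Of the 5 lectin chaperones and disulfide isomerases, 2 were higher (40%, against 19.1% of the abundant protein-coding genes) and none was lower (against 44.0%). *Canx* encodes calnexin, the membrane-bound lectin that retains glycoproteins until they are folded. It had 3804, 2864 and 3552 normalized counts in WT, against 6055, 5737 and 4333 in Mmp13-/- samples, and every Mmp13-/- value was above the WT values. Its log2 fold change was 0.66 (SE 0.19, adjusted p = 0.0139, edgeR's quasi-likelihood test). It was −0.17 after GC correction (adjusted p = 0.417). The call was again lost when WT sample 4 or 5 or Mmp13-/- sample 1 or 2 was left out (highest adjusted p = 0.0966, edgeR's quasi-likelihood test). In those fits, which hold fewer samples, the log2 fold change was 0.50 to 0.61 (SE 0.22 to 0.26). *Calr* encodes calreticulin, the soluble lectin of the same cycle. It had 6759, 7354 and 8219 in WT, against 6478, 6016 and 4901 in Mmp13-/- samples, all of the Mmp13-/- values below the WT values, with a log2 fold change of −0.36 (SE 0.18, adjusted p = 0.111, edgeR's quasi-likelihood test) that did not pass. With DESeq2, *Calr*, *Atf4* and *Sec61a1* passed as lower.

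*Pdia6* encodes P5, a disulfide isomerase that works with BiP and attenuates IRE1α. Its values were 1529, 1111 and 1159 in WT, against 2766, 2391 and 2092 in Mmp13-/- samples, with no overlap. The log2 fold change of 0.93 (SE 0.17, adjusted p = 0.00173, edgeR's quasi-likelihood test) was little moved by GC correction (0.83, adjusted p = 0.00467). *Pdia3*, the isomerase bound to calnexin and calreticulin, had a log2 fold change of 0.15 (SE 0.14), and *Pdia4*, the isomerase ERp72, had 0.34 (SE 0.14, adjusted p = 0.0637, edgeR's quasi-likelihood test). Neither passed, although the values of *Pdia4* did not overlap. With upper-quartile factors both were among the 11 higher members.

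Of the 9 sensors and transcription factors, 5 were lower (55.6%, against 44.0% of the abundant protein-coding genes), none was higher (against 19.1%) and 4 did not pass. With upper-quartile factors 1 was higher (*Atf6*) and 3 were lower. *Creb3l1* (chr2:91982328-92024502, minus strand, GRCm38), which encodes OASIS, was the member that fell most. It had 1485, 1457 and 1327 normalized counts in WT samples 2, 4 and 5, against 304, 342 and 398 in Mmp13-/- samples 1, 2 and 6. The highest Mmp13-/- value was far below the lowest WT value, and the means were 1423 ± 84.5 and 348 ± 47.4 (SD, n = 3 each). The log2 fold change was −2.04 (SE 0.15, adjusted p = 3.41e-05, edgeR's quasi-likelihood test), −2.16 to −2.01 when any 1 sample was left out, and −1.20 after GC correction (adjusted p = 0.000406). *Creb3l2*, its paralog BBF2H7, which drives the COPII secretory genes in cartilage, had 4040.3, 3764 and 2969 in WT, against 2167, 2307 and 2038 in Mmp13-/- samples. It was also lower in every Mmp13-/- sample than in any WT sample, with a log2 fold change of −0.73 (SE 0.16, adjusted p = 0.00417, edgeR's quasi-likelihood test) and of −0.66 after GC correction (adjusted p = 0.0093), and failed to pass only with total counts.

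The transcripts of 2 of the 3 classical sensors were lower. *Ern1*, which encodes the kinase and endonuclease IRE1α, had 2209, 2131 and 2162 normalized counts in WT, against 1714, 1491 and 1256 in Mmp13-/- samples, a narrow WT range above all Mmp13-/- values. Its log2 fold change was −0.54 (SE 0.15, adjusted p = 0.0127, edgeR's quasi-likelihood test). *Eif2ak3*, which encodes the eIF2α kinase PERK, had 902, 1117 and 999 in WT, against 753, 842 and 674 in Mmp13-/- samples. These values also did not overlap, with a log2 fold change of −0.41 (SE 0.15, adjusted p = 0.0387, edgeR's quasi-likelihood test), but the call was lost without WT sample 4 or 5 or Mmp13-/- sample 1 or 6 (highest adjusted p = 0.113). After GC correction neither passed (*Ern1* −0.34, adjusted p = 0.0882; *Eif2ak3* −0.16, adjusted p = 0.376; edgeR's quasi-likelihood test). *Atf6*, the membrane-bound factor cleaved in the Golgi, had a log2 fold change of 0.10 (SE 0.13) and passed in opposite directions under the alternatives: higher with upper-quartile factors (0.31, adjusted p = 0.0254) and lower after GC correction (−0.40, adjusted p = 0.0241).

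Among the 4 regulators *Ddit3*, *Atf4*, *Xbp1* and *Trib3*, which act downstream of the sensors, only *Ddit3* passed. *Ddit3* encodes the pro-apoptotic factor CHOP. It had 398, 399 and 364 normalized counts in WT, against 328, 285 and 264 in Mmp13-/- samples, without overlap. The log2 fold change of −0.40 (SE 0.15, adjusted p = 0.0441, edgeR's quasi-likelihood test) lay close to the threshold. Of the fits that left out 1 sample, *Ddit3* passed only in the one without Mmp13-/- sample 1 (highest adjusted p = 0.0943 in the others), and it did not pass after GC correction (−0.22, adjusted p = 0.25). *Atf4*, the factor translated when PERK is active, had 2549.7 ± 109.6 normalized counts in WT, against 2031 ± 214 in Mmp13-/- samples (SD, n = 3 each) and a log2 fold change of −0.33 (SE 0.14, adjusted p = 0.0779, edgeR's quasi-likelihood test), without overlap. *Xbp1* had a log2 fold change of −0.12 (SE 0.14), whose sign turned with upper-quartile factors, with total counts and after GC correction. These gene-level counts do not separate the *Xbp1* form spliced by IRE1α from the unspliced form, and ATF4 is regulated mainly in translation, so neither activity was measured here. *Trib3*, a pseudokinase induced by ATF4 and CHOP, was the member at the lowest level, with 24.3, 46.5 and 69.9 in WT, against 31.7, 27.0 and 64.6 in Mmp13-/- samples and a log2 fold change of −0.22 (SE 0.46), and its ranges overlapped.

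Of the 3 translocon genes, *Sec61b*, the small β subunit of the channel, was higher (33.3%, against 19.1% of the abundant protein-coding genes). It had 326, 249 and 346 normalized counts in WT, against 547, 658 and 424 in Mmp13-/- samples. The 2 ranges did not overlap, and the log2 fold change was 0.83 (SE 0.20, adjusted p = 0.00604, edgeR's quasi-likelihood test), or 1.37 after GC correction (adjusted p = 0.0017). The pore subunit *Sec61a1* had values of 4189.8, 4611 and 4367 in WT, against 3548, 3809.8 and 2734 in Mmp13-/- samples, with a log2 fold change of −0.38 (SE 0.17, adjusted p = 0.0786, edgeR's quasi-likelihood test). The transcripts of the 2 subunits thus lay on opposite sides of 0, although *Sec61a1* did not pass. *Ssr1*, the α subunit of the translocon-associated protein complex, had a log2 fold change of 0.15 (SE 0.17).

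Of the 4 genes of ER-associated degradation, 3 were lower (75%, against 44.0% of the abundant protein-coding genes) and *Edem1* did not pass. *Syvn1* encodes HRD1, the ubiquitin ligase of the channel that returns misfolded proteins to the cytosol. It had 1241, 1405 and 1019 normalized counts in WT, against 654, 648 and 547 in Mmp13-/- samples, and each Mmp13-/- value was well below the WT values. The log2 fold change was −0.98 (SE 0.16, adjusted p = 0.000817, edgeR's quasi-likelihood test). It failed to pass only after GC correction (−0.33, adjusted p = 0.121). *Sel1l*, the HRD1 adaptor, had 3070.2, 3378 and 3204 in WT, against 2494, 2709 and 2167 in Mmp13-/- samples, and *Herpud1*, a stress-induced scaffold of the same complex, had 1708, 1893 and 1811 and 1436, 1399 and 1164. These 3 members were thus all lower, with log2 fold changes of −0.39 (SE 0.15) for *Sel1l* and −0.43 (SE 0.14) for *Herpud1*. Genes of ER-associated degradation outside the list went both ways, with *Selenos*, *Ube2j1* and *Derl2* higher, as given below. Both calls were near the threshold (adjusted p = 0.048 and 0.0248, edgeR's quasi-likelihood test). The call of *Sel1l* was lost when WT sample 2, 4 or 5 or Mmp13-/- sample 1 was left out (highest adjusted p = 0.118), and that of *Herpud1* when WT sample 4 or 5 was (highest adjusted p = 0.0706). After GC correction *Sel1l* passed (−0.53, adjusted p = 0.0161) and *Herpud1* did not (−0.24, adjusted p = 0.169; edgeR's quasi-likelihood test). *Edem1*, a mannosidase-like factor that marks glycoproteins for degradation, had a log2 fold change of 0.15 (SE 0.17).

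*Mia3* encodes TANGO1, the receptor that packs procollagen into vesicles leaving the ER. It had 2766, 2719 and 2750.3 normalized counts in WT, against 2184, 2193 and 1759.5 in Mmp13-/- samples, close together in WT and all lower in Mmp13-/- pulp. The log2 fold change was −0.42 (SE 0.15, adjusted p = 0.0325, edgeR's quasi-likelihood test), and −0.92 after GC correction (adjusted p = 0.0013). The uncorrected call was lost when WT sample 2, 4 or 5 was left out (highest adjusted p = 0.0766).

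The members that were higher were poorer in GC than those that were lower. Exon GC content was 42.4% to 55.9% (median 45.0%) in the 6 higher and 45.2% to 59.5% (median 51.8%) in the 10 lower members. After the correction, which brought the relation over protein-coding genes from −0.58 to a rho of −0.034, 8 of the 16 members still passed in the same direction (*Hspa5*, *Hsp90b1*, *Pdia6* and *Sec61b* higher, *Creb3l1*, *Creb3l2*, *Sel1l* and *Mia3* lower). Over all genes tested, 38.2% passed with the correction, against 51.6% without it. *Dnajb9* and *Atf6*, which did not pass without the correction, passed with it as lower, whereas with upper-quartile factors both passed as higher.

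**Figure D3:**
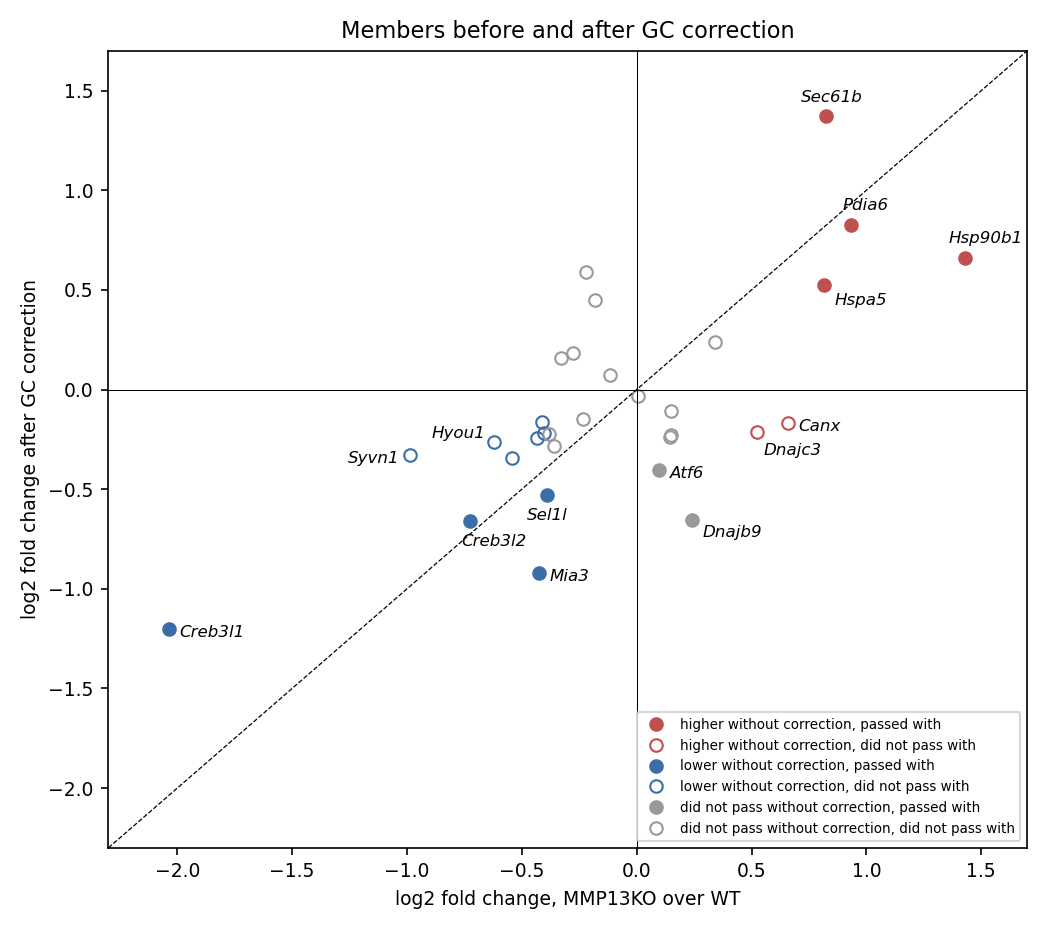
Log2 fold change of each of the 31 members without (horizontal axis) and with (vertical axis) GC correction, filled where the member passed with the correction, with the dashed line where both are equal. *Hspa5*, *Hsp90b1*, *Pdia6* and *Sec61b* stay in the upper right and *Creb3l1* in the lower left, whereas *Canx* and *Dnajc3* fall below 0 on the vertical axis.

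Mmp13-/- sample 6 was the lowest of its genotype in 28 of the 31 members (90.3%), and in 74.2% of the abundant protein-coding genes. Without it 7 members were higher and 8 were lower. The coefficient of variation within a genotype had a median over members of 9.87% in WT and 11.1% in Mmp13-/- samples.

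Per kilobase of exon, *Calr* had the highest level of the members in both genotypes, 2585 ± 255 normalized counts per kb in WT and 2013 ± 282 in Mmp13-/- samples (mean ± SD, n = 3 each). In WT it was followed by *Atf4* at 1081 ± 46.5, *Pdia3* at 827 ± 41.9, *Hspa5* at 785 ± 44.4 and *Herpud1* at 773 ± 39.6. *Pdia3* lay within 1 SD of *Hspa5*, and *Hspa5* of *Herpud1*, by the larger SD of each pair. In Mmp13-/- pulp the order below *Calr* was *Hspa5* at 1382 ± 118, *Hsp90b1* at 1348 ± 208 and *Canx* at 1145 ± 195 counts per kb, each within 1 SD of the next. *Hsp90b1* was at rank 12 of 31 in WT (501 ± 75.0 per kb) and at rank 3 in Mmp13-/- samples, and *Creb3l1* went from rank 11 (547 ± 32.5 per kb) to rank 28 (134 ± 18.2 per kb). *Trib3* was the lowest in both genotypes.

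The other genes of the pathway were described in 7 lists of 151 genes chosen by function, of which 150 were tested (all but *Fgf21*), 46 were higher (30.7%, against 27.3% of all genes), 40 were lower (26.7%, against 24.3%) and 64 did not pass. Taken as 1 group, these genes thus passed in shares close to those of all genes tested. Against the abundant protein-coding genes (19.1% higher, 44.0% lower), a larger share was higher and a smaller share was lower. With total counts 36 were higher and 10 were lower, and after GC correction 27 and 29. The 21 other translocon, signal recognition and signal peptidase genes held 16 that were higher (76.2%, against 19.1% of abundant genes). In that list 1 was lower (4.76%, against 44.0%), and the median log2 fold change was 0.73. After GC correction 8 were higher and 1 was lower, with a median of 0.12. Without WT sample 5 the higher genes of this list numbered 10. The γ subunit of the channel, *Sec61g*, had 106 ± 28.1 normalized counts in WT, against 722 ± 108 in Mmp13-/- samples (SD, n = 3 each), a log2 fold change of 2.77 (SE 0.22), or 2.32 after GC correction. Both small Sec61 subunits, β and γ, were therefore higher. *Ssr3* (1.39, SE 0.19) and *Srp19* (0.99, SE 0.17), a subunit of the signal recognition particle, were higher, and *Srp68* of the same particle was lower (−0.75, SE 0.14). After GC correction *Ssr3* (0.24) and *Srp68* (−0.33) did not pass.

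Of the 28 other disulfide and folding enzymes, 11 were higher (39.3%, against 19.1% of abundant genes) and 4 were lower (14.3%, against 44.0%), with a median of 0.29. After GC correction 9 were higher and 1 was lower, and with total counts 11 and 1. *Fkbp7*, a prolyl isomerase of the ER, went from 83.3 ± 16.3 to 497 ± 45.9 normalized counts (log2 fold change 2.58, SE 0.19), the thiol isomerase *Tmx3* from 269 ± 61.5 to 1181 ± 274 (2.14, SE 0.22) and the selenoprotein *Selenof* from 1001 ± 161 to 2849 ± 420.2 (1.51, SE 0.17). *Cnpy3* (−0.89), a co-chaperone of GRP94, the collagen prolyl isomerase *Fkbp10* (−0.79) and *Sil1* (−0.61), the other exchange factor of BiP, were lower. Both exchange factors of BiP, *Hyou1* and *Sil1*, were thus lower while BiP was higher, but neither decrease passed after GC correction, as was the case for *Fkbp10*, *Cnpy3* and the increase of *Tmx3*. Of the 14 genes of N-glycosylation, 4 were higher (28.6%, against 19.1% of abundant genes) and 2 were lower (14.3%, against 44.0%). The list median was −0.02, or 0.18 with upper-quartile factors. After GC correction 3 were higher and 1 was lower, and with total counts 4 and 0. *Ostc* (log2 fold change 2.01, SE 0.21), *Stt3a* (0.99) and *Uggt2* (0.92) were higher, and *Prkcsh* (−0.80) and *Mogs* (−0.67), which trim glucose, were lower; of these only *Ostc* (1.51) passed after GC correction.

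The 22 other genes of ER-associated degradation held 5 that were higher (22.7%) and 10 that were lower (45.5%, against 24.3% of all and 44.0% of abundant genes), with a median of −0.30. The counts were 1 and 9 after GC correction, 8 and 8 with upper-quartile factors and 1 and 2 with total counts. The higher genes numbered 0 to 3 when any one of WT samples 2, 4 and 5 and Mmp13-/- samples 1 and 2 was left out. The ubiquitin-conjugating enzyme *Ube2g2* (−1.30, SE 0.17), *Nploc4* (−0.98, SE 0.15), a cofactor of the p97 segregase, and *Aup1* (−0.89, SE 0.15), which recruits UBE2G2, were lower on the log2 scale. *Selenos* (0.69), *Ube2j1* (0.59) and *Derl2* (0.50) were higher, each losing its call in at least 1 fit that left out a sample. Of the 23 genes of ER exit and retrieval, 3 were higher, 5 were lower (21.7%) and 15 did not pass (median −0.19). The counts were 8 and 4 with upper-quartile factors (median 0.01), 1 and 5 after GC correction and 1 and 0 with total counts. *Preb* (−0.86, SE 0.15), which activates the SAR1 GTPases, the KDEL receptor *Kdelr1* (−0.61) and *Sec16a* (−0.60) were lower. *Sar1a* (0.54), *Sar1b* (0.86) and *Kdelr3* (0.51) were higher, and no gene of the list was higher without WT sample 4, WT sample 5, Mmp13-/- sample 1 or Mmp13-/- sample 2, whereas 6 were without Mmp13-/- sample 6.

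Of the 24 tested targets of ATF4 in the integrated stress response, 4 were higher (16.7%, against 19.1% of abundant genes) and 11 were lower (45.8%, against 44.0%). The list median was −0.37, against −0.33 over the abundant genes, so these targets were close to the abundant genes in both respects. After GC correction 4 were higher and 8 were lower (median −0.04), and with total counts 4 and 4. *Atf5* went from 1835 ± 121 to 462 ± 73.0 normalized counts (log2 fold change −1.99, SE 0.16), *Cebpb* from 1485 ± 265 to 438 ± 138 (−1.75, SE 0.23) and *Sesn2* from 615 ± 63.0 to 284 ± 24.8 (−1.12, SE 0.15). In the other direction, the cystine transporter *Slc7a11* (1.77, SE 0.24), *Nupr1* (0.86) and asparagine synthetase *Asns* (0.84) were higher. The targets therefore did not share a direction. Of the 18 other stress sensors and regulators, 3 were higher (16.7%, against 19.1% of abundant genes) and 7 were lower (38.9%, against 44.0%), with a median of −0.27. The counts were 1 and 4 after GC correction and 3 and 3 with total counts. The pro-apoptotic *Bbc3* (−1.71, SE 0.21), *Atf6b* (−1.16, SE 0.14), the paralog of *Atf6*, and *Traf2* (−0.93, SE 0.16), which binds IRE1α, were lower, and *Eif2s1* (1.19, SE 0.17), which encodes eIF2α, and the eIF2α kinase *Eif2ak2* (0.94, SE 0.15) were higher. After GC correction *Atf6b*, *Eif2s1* and *Eif2ak2* did not pass. *Ern2*, the epithelial paralog of IRE1α, passed as higher from estimated counts of 0.947, 2 and 0 in WT samples 2, 4 and 5, against 14.1, 13.9 and 26.2 in Mmp13-/- samples 1, 2 and 6, near the floor at which a fold change depends on the prior count. Its highest value was in Mmp13-/- sample 6, in which the receptor genes were also highest.

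**Figure D4:**
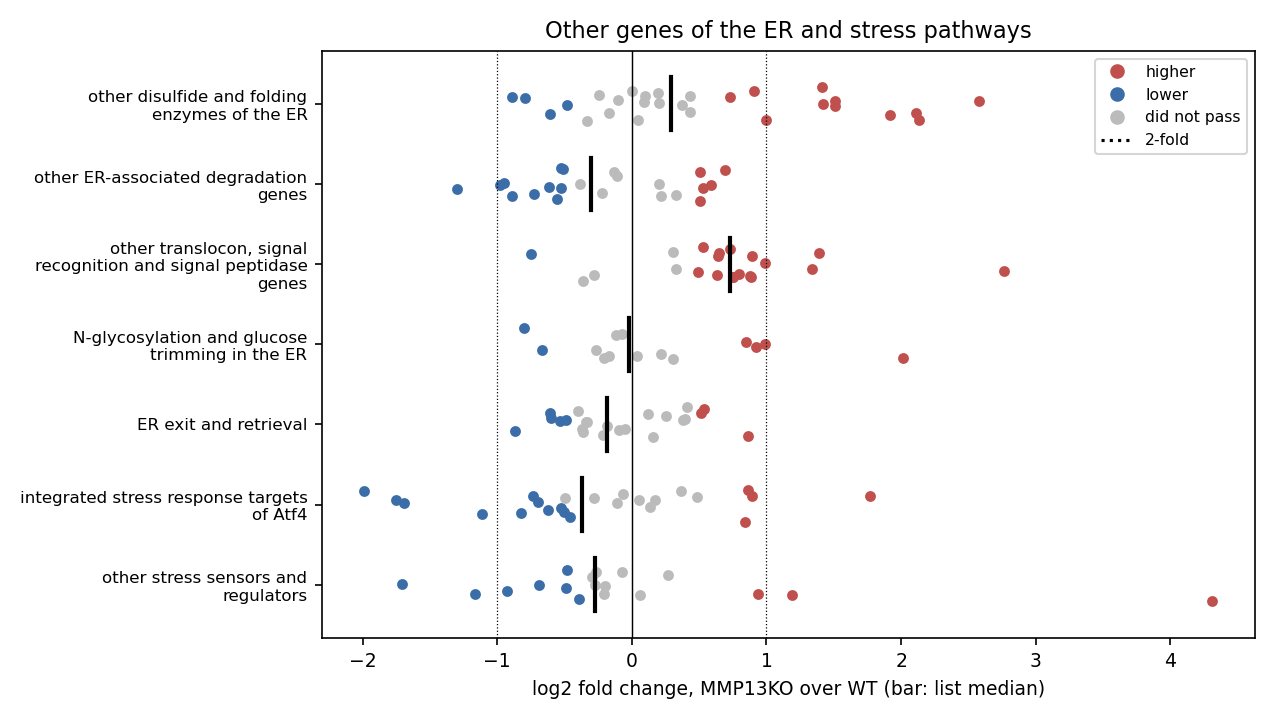
Log2 fold change of Mmp13-/- over WT for each tested gene of the 7 lists of other pathway genes, with a black bar for the median of each list and dotted lines at 2-fold. The translocon list has the highest median at 0.73 and the ATF4 targets the lowest at −0.37, near the −0.33 of the abundant protein-coding genes. The point at the far right is *Ern2*, whose counts were near the floor.

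Markers of secretory and of other cell types were also compared between the genotypes. The shares to set beside their counts are 27.3% higher and 24.3% lower over all genes tested. Over the abundant protein-coding genes these shares are 19.1% and 44.0%. Of 8 odontoblast and mineralized tissue markers, 3 were higher and 3 were lower (37.5% each). Their summed normalized counts were 1492360 to 1672600 in WT and 466373 to 617161 in Mmp13-/- samples. *Col1a1* and *Col1a2* made up most of that sum, and the other 6 markers summed to 44866 to 85239 in WT, against 74119.5 to 109160.0 in Mmp13-/- samples, which overlap. *Dspp*, the defining dentin gene, was present in every sample, with means of 26077 ± 16169 in WT and 57066 ± 12696 in Mmp13-/- samples (SD, n = 3 each), and *Col1a1* was lower (log2 fold change −2.16, SE 0.34). Of 8 plasma cell markers, 7 were tested, 4 were higher and 2 were lower, with sums of 8904 to 13908 and 8476 to 10435. *Sdc1*, which epithelial cells also express, made up most of the sum and was lower. Without it the other 7 summed to 2224 to 3271 in WT, against 4477 to 5543 in Mmp13-/- samples. Of these, *Jchain*, *Mzb1*, *Igkc* and *Ighm* were higher and *Derl3* was lower (log2 fold change −0.73, or 0.06 after GC correction). *Igha* (−0.77) did not pass, and *Tnfrsf17* was not tested. All 6 B cell markers were higher (174 to 344 against 877 to 1114). Of 8 neutrophil and precursor markers 7 were higher (3742 to 7883 against 18903 to 46842), and of 6 erythroid markers 5 were higher (23342 to 37389 against 55121 to 103033). Skeletal muscle markers were present in a pulp sample at 679684 to 901717 summed counts in WT and 126759 to 310166 in Mmp13-/- samples, with 4 of 6 lower. Of the 6 ameloblast and epithelial markers 2 were lower (33.3%, sums of 122687 to 158402 against 119601 to 155703). These were the keratins *Krt14* (−1.33) and *Krt5* (−1.31), neither of which passed after GC correction. *Enam* (1.51), *Ambn* (0.95), *Amelx* (0.48) and *Klk4* (−0.40) did not pass, so the sum joins genes of opposite direction. *Amelx* was uneven in WT, with 41923, 10958 and 3795 in samples 2, 4 and 5. None of these defining markers was at 0 in a whole genotype. The part of these cell types in the changes of the chaperone and stress response genes was not tested.

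Annotated exons of 10 of the 31 members share bases with another gene in GENCODE M21, over 5% of the exon length in 4 members. In *Hsp90b1*, *Eif2ak3* and *Sec61a1* that partner lies on the opposite strand, and in *Ddit3* it is another entry of the same symbol on the same strand, which shares 6.13% of the exon bases.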

How the data were processed

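RNA from 3 dental pulp samples of WT and 3 of Mmp13-/- mice was sequenced by the authors, whose methods name Strand NGS (version 4.0), while the submitters' processing notes name DESeq and the mm10 build. Aligner settings, annotation release and counting strand were not given in the sources used here. The deposited table holds estimated counts per gene (90.8% of nonzero values are not whole) and the authors' normalized log2 values. Its columns of fold changes and p-values from the authors' own comparison were not used.

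The estimated counts were rounded, and genes were kept by filterByExpr within genotype. Genotypes were compared with edgeR's quasi-likelihood test (edgeR 4.0.16, R 4.3.3, TMM factors, Benjamini-Hochberg adjustment over 24534 genes, adjusted p under 0.05 at any fold, or also over 2-fold). The procedure was tested on simulated data. With 3 against 3 samples an exact permutation test cannot go below 0.1, so none was used. GC correction fitted a loess curve (span 0.4) per sample on exon GC content of GENCODE M21. Background subtraction removed the rate per kb of the receptor genes. Other alternatives were RLE factors, upper-quartile factors, total counts, a minimum of 10 counts per sample, an unfiltered table, DESeq2 1.42.0, limma 3.58.1 on the deposited log2 values, and leaving out each sample.

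All 31 members are named. In each list of other pathway genes, up to 3 genes per direction with the smallest adjusted p are named. The members and lists were chosen with earlier results of these data known. Promoter sequences are from RefSeq. Protein sequences were not analysed here. Depth was 21561420 to 29980236 counts in genes per sample.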

Additional observations from a re-analysis of the deposited data

How the results depend on the processing

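The test gave 6 higher and 10 lower members. Higher members numbered 11 with upper-quartile factors. Lower members numbered 5 with upper-quartile factors, 2 with total counts, 5 with at least 10 counts in every sample, 6 after GC correction and 5 after background subtraction. Leaving out 1 sample gave 4 to 7 higher and 5 to 9 lower members. The share of all genes passing changed as well, from 51.6% to 40.6% with total counts and 38.2% after GC correction. It was 40.5% without WT sample 4 and 51.2% without Mmp13-/- sample 6, the extremes of the fits that left out 1 sample. Over 2-fold, the higher members went from 1 to 4 with upper-quartile factors, 2 with total counts, 2 with at least 10 counts and 2 after background subtraction, and the lower members from 1 to 2 with no filter, DESeq2 and limma. Each was 1 to 2 when 1 sample was left out. Of the pathway list genes, 27 were higher after GC correction (46 without) and 10 were lower with total counts (40 without). The cause of these differences was not tested. No paired analysis was possible because the genotypes share only replicate number 2.

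Over the 31 members and 15 alternatives, 360 log2 fold changes kept direction and side of the threshold, 61 no longer passed, 12 newly passed and 32 changed sign. After GC correction the sign changed for *Dnajb9* (−0.66), *Dnajc3* (−0.21), *Sdf2l1* (0.45), *Creld2* (0.18), *Manf* (−0.031), *Canx* (−0.17), *Pdia3* (−0.11), *Atf6* (−0.40), *Xbp1* (0.073), *Atf4* (0.16), *Trib3* (0.59), *Ssr1* (−0.23) and *Edem1* (−0.24). With upper-quartile factors it changed for *Sdf2l1* (0.019), *Xbp1* (0.094) and *Trib3* (0.029). *Xbp1* was 0.0059 with total counts, 0.0080 with at least 10 counts and 0.044 after background subtraction. *Manf* was −0.11 with no filter, −0.036 with DESeq2 and −0.053 with limma, and *Atf6* −0.011 with no filter. Leaving out 1 sample gave −0.083 to −0.0029 for *Manf*, −0.66 to 0.10 for *Trib3*, −0.040 to 0.29 for *Ssr1* and −0.045 to 0.27 for *Edem1*. Of these, only *Canx* and *Dnajc3* had passed the test.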
